A study of Homo sapiens with 8 samples.

Results

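HSD3B2, MRAP, INHA and DLK1 are genes that mark the adrenal cortex or serve its hormone output. They are 4 of the 187 genes in the table of estimated counts deposited for this study and were taken from it by gene symbol. The study used NCI-H295R cells, a line from a human adrenocortical carcinoma that secretes adrenal steroids, and sequenced their polyadenylated RNA in 8 libraries. Serum-deprived cells (4 libraries) were kept in DMEM-F12 with L-glutamine, HEPES and Pen/Strep, without NU-I serum and without the ITS supplement of insulin, transferrin and selenium. Control cells (4 libraries) had the same medium with 5% NU-I serum and ITS diluted 1 in 1000. All libraries come from a single cell line, both additions were withdrawn together, and the sources used here do not state how long the withdrawal lasted.

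In the adrenal cortex, steroids start from pregnenolone, which carries its double bond in the Δ5 position. The 3β-hydroxysteroid dehydrogenase encoded by HSD3B2 moves pregnenolone, its 17-hydroxy form and DHEA into the Δ4 series that leads to aldosterone, cortisol and androstenedione, so the enzyme stands at the branch between DHEA and the other adrenal steroids. MRAP is the accessory protein that brings the ACTH receptor MC2R to the cell surface. INHA encodes the alpha subunit of the inhibins, which oppose activins, and DLK1 encodes a membrane protein related to Notch ligands that marks fetal and progenitor-like cells of the cortex.

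The table holds genes the authors had selected as changed in this comparison, apparently from replicates 2 to 4 of each group, so neither the presence of these genes nor their direction is independent evidence. Counts per library summed to between 262373 and 359195 over the 187 genes, which is not the sequencing depth. The replicate 1 libraries stood apart from the rest of each group. Their Spearman correlations across the 187 genes with the other libraries of their own group were 0.919 to 0.927 in serum-deprived cells and 0.947 to 0.950 in control cells, whereas replicates 2 to 4 correlated with each other at 0.969 to 0.979 in serum-deprived cells and at 0.977 to 0.987 in control cells. Nothing in the labels says whether libraries of a group were separate cultures, so the p-values below measure the spread between these libraries, which may be technical. Of 12 adrenocortical markers, these 4 were in the table, and of 27 markers of medullary and neuroendocrine cells, fibroblasts, endothelium and leukocytes none was. The adrenocortical list includes these 4 genes, which were taken from the table, so that contrast was set in advance and is not evidence of cell type. A table restricted to selected genes does not allow the cell type itself to be checked.

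HSD3B2 has a close paralog, HSD3B1, which encodes the placental and peripheral form of the enzyme and lies near it on chromosome 1. The values of HSD3B2 depend on how well reads of 76 bases tell the pair apart. In GENCODE 29 (GRCh38) their coding sequences were 93.5% identical, with 73 of 1119 aligned positions different, and the longest run shared base for base was of 103 bases. Of the 1708 windows of 76 bases in the longest coding HSD3B2 transcript, 28 (1.64%) also occurred in a transcript of another gene. All of these lay in HSD3B1, and the pseudogenes HSD3BP1, HSD3BP2, HSD3BP4 and HSD3BP5 shared shorter runs of at most 54 bases. No window of MRAP, INHA or DLK1 occurred in another gene on the same strand. These are properties of the annotation, and the settings and transcript release with which kallisto, the counting tool named by the submitters, assigned the reads are not stated in the sources used here.

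The promoter windows of HSD3B2 and INHA are shown because only these were available. They run from 250 bases before to 50 bases after the RefSeq start (GRCh38.p14). RefSeq windows were matched for these 2 of the 4 genes, and MRAP and DLK1 had none in the table used. The motifs searched on both strands are in capitals: CAAGGNC (a core of the site for the steroidogenic factor NR5A1), TGACG (a core of the cAMP response element) and GATAA (a core of the GATA factor site). HSD3B2 lies at chr1:119414681-119414980 on the plus strand and INHA at chr2:219572060-219572359 on the plus strand.
HSD3B2: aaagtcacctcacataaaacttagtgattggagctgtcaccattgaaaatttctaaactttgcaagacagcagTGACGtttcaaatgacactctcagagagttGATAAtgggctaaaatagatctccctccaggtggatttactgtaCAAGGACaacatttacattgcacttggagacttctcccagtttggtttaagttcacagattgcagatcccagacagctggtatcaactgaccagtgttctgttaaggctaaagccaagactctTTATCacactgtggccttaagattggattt
INHA: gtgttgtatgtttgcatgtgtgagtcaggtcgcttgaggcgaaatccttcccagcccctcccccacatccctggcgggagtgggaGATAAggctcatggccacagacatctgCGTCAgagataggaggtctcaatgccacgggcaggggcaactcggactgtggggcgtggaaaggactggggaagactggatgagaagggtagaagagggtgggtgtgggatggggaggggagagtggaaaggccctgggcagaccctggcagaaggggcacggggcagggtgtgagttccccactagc

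TGACG lay on the plus strand of HSD3B2, beginning 177 bases before the start, and on the minus strand of INHA, where it reads CGTCA and begins 138 bases before the start. GATAA was found on the plus strand of both windows, beginning 147 bases before the start of HSD3B2 and 165 bases before that of INHA, and once more in HSD3B2 on the minus strand, where it reads TTATC and begins 20 bases after the start. CAAGGNC was found once in HSD3B2, beginning 103 bases before the start. None of the motif matches overlapped another. Of 35116 promoter windows of the same length, 24.6% held TGACG, 22.7% held GATAA and 16.3% held CAAGGNC. The matches describe these letters in these windows and are not shown to be sites.

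All 4 genes were lower in serum-deprived cells than in control cells, by 1.47-fold to 2.67-fold. Each passed edgeR's quasi-likelihood test at an adjusted p of 0.05 (Benjamini-Hochberg, over 187 genes), in a table in which 85.0% of genes passed in either direction and 48.1% passed as lower. In each of the 4 genes every serum-deprived value lay below every control value, which held for 40.1% of tabulated genes. Values are scaled counts, that is estimated counts divided by a size factor for each library, and are given with their SD over 4 libraries. In bulk RNA, fewer cells of a type and less RNA per cell cannot be told apart.

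**Figure D1:**
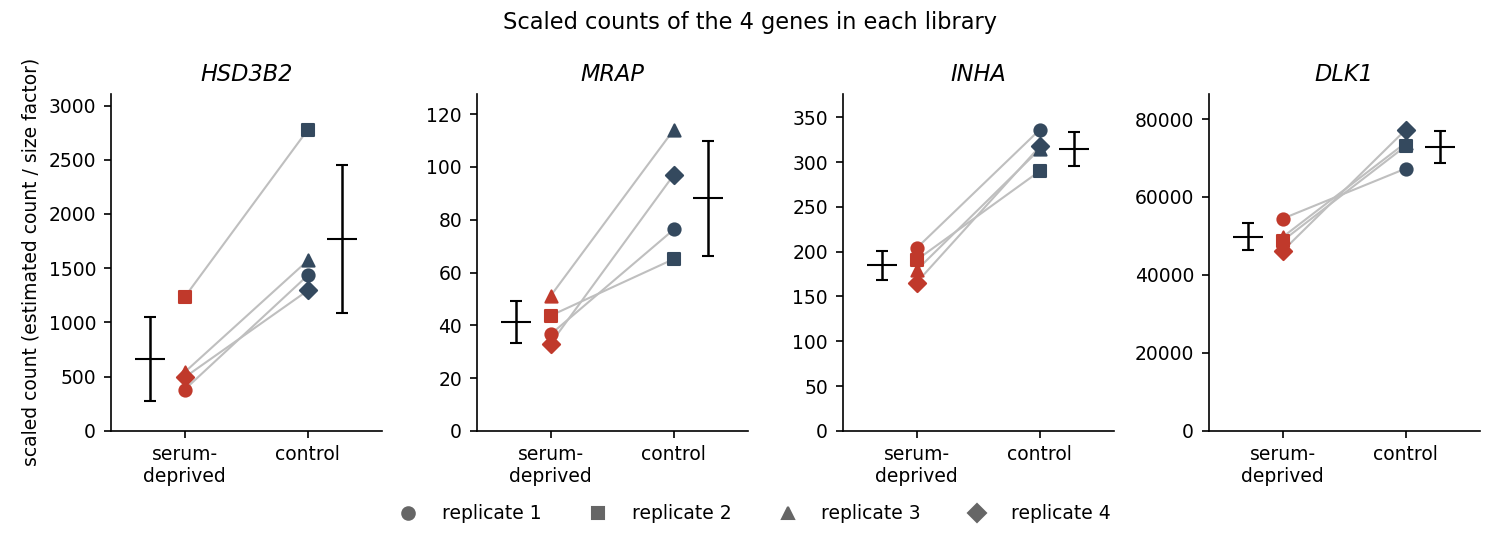
Scaled counts (vertical axes, each from 0) of HSD3B2, MRAP, INHA and DLK1 in 4 serum-deprived libraries (red, left) and 4 control libraries (dark, right). Marker shapes give the replicate number, grey lines join libraries of the same number, and bars beside the points give the mean and SD. The groups do not overlap in any panel, and the replicate 2 libraries of HSD3B2, at 1233 in serum-deprived cells and 2778 in control cells, stand above the rest of their groups.

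HSD3B2 (ENSG00000203859, chromosome 1, 119414931 to 119423035) was the 1 gene of the 22-gene steroidogenesis list that the table held. Its scaled counts were 379, 1233, 539.97 and 493 in serum-deprived replicates 1 to 4, against 1434, 2778, 1571 and 1294 in control replicates 1 to 4. The highest serum-deprived value was replicate 2, and it lay 61.5 scaled counts below the lowest control value, replicate 4. The means were 661 ± 387 in serum-deprived cells and 1769 ± 682 in control cells, and edgeR gave a log2 fold change of -1.42 with an SE of 0.37 (adjusted p = 0.00621).

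The spread of HSD3B2 within groups was among the widest of the table. Its coefficient of variation was 58.5% in serum-deprived cells, rank 5 of 187 genes, and 38.5% in control cells, rank 18, where the median gene had 19.1% in serum-deprived cells and 17.8% in control cells. The highest library exceeded the lowest 3.25-fold in serum-deprived cells and 2.15-fold in control cells. Replicate 2 was the highest in both groups.

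Within numbered pairs HSD3B2 was far more even. The serum-deprived library held 26.5%, 44.4%, 34.4% and 38.1% of the scaled count of its control in pairs 1 to 4. The 4 log2 ratios were -1.92, -1.17, -1.54 and -1.39, with a mean of -1.51 ± 0.31 (SD, n = 4 pairs). Had the libraries been unpaired, the spread of the same difference would have been 0.88, so the pair SD was 0.35 times as large. That quotient was the 16th lowest of the 187 genes, whose median was 0.85. It rests largely on pair 2, whose libraries were the highest of their groups, at 1233 scaled counts in serum-deprived cells and 2778 in control cells. Without pair 2 the scaled counts ran from 379 to 539.97 in serum-deprived cells and from 1294 to 1571 in control cells. Far less spread between libraries was then left for pairing to remove. The quotient was not tabulated without that pair.

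**Figure D2:**
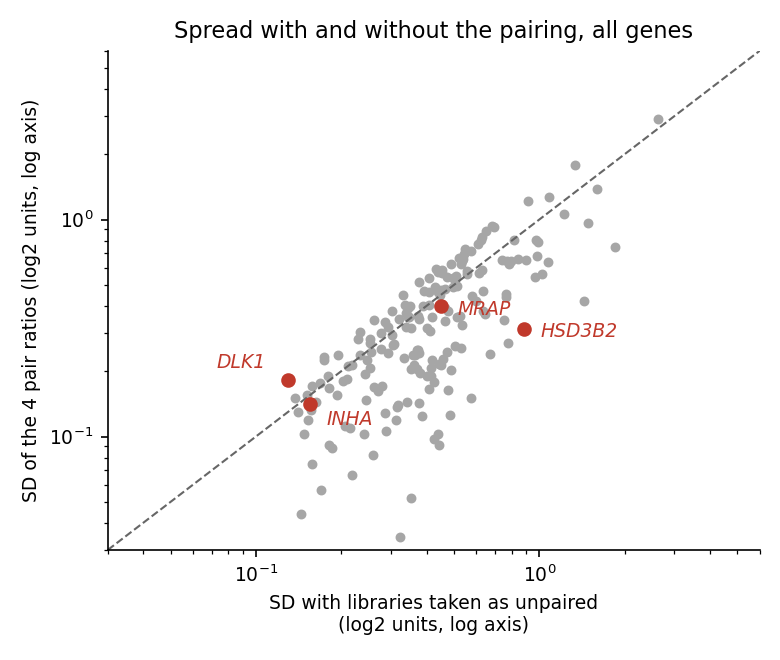
SD of the 4 log2 pair ratios (vertical, log axis) against the SD of the same difference with libraries taken as unpaired (horizontal, log axis) for 187 genes (grey), with HSD3B2, MRAP, INHA and DLK1 in red; the dashed line marks equality. HSD3B2 lies far below the line (0.31 against 0.88), MRAP and INHA lie just below it and DLK1 lies above it.

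MRAP (ENSG00000170262, chromosome 21, 32291813 to 32314784) was the 1 tabulated gene of the 27 on the list for the ACTH receptor and cAMP signalling. MC2R itself was not in the table and was not analysed here. MRAP had scaled counts of 36.5, 43.6, 51.1 and 33.1 in serum-deprived replicates 1 to 4, against 76.3, 65.1, 114 and 97.1 in control replicates 1 to 4. Replicate 3 was the highest library of each group, and the closest values of the groups were 51.1 in serum-deprived replicate 3 and 65.1 in control replicate 2. The means were 41.1 ± 8.00 in serum-deprived cells and 88.2 ± 21.8 in control cells, and the log2 fold change was -1.09 with an SE of 0.23 (edgeR, adjusted p = 0.00275).

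MRAP was the least abundant of the 4 genes and its fall varied most between pairs. The log2 ratios in pairs 1 to 4 were -1.06, -0.58, -1.16 and -1.55, a mean of -1.09 ± 0.40 (SD, n = 4 pairs). Its estimated counts before scaling were 28 to 55 in serum-deprived libraries and 76 to 131 in control libraries. The variance of the scaled counts was 1.56 times their mean in serum-deprived cells and 5.39 times in control cells, where counting alone would give about 1. MRAP also shares 607 of the 1000 exonic bases of its longest coding transcript (60.7%) with URB1 on the opposite strand. The library kit keeps strand, per the labels' protocols, but no source used here states whether the counting used it, so reads of the overlap cannot be assigned with certainty. All 8 estimated counts of MRAP lay within 0.00041 of a whole number.

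INHA (ENSG00000123999, chromosome 2, 219569162 to 219575713) was the 1 tabulated gene of the 23 on the inhibin, activin and TGF-beta family list. The scaled counts were 204, 191, 179 and 165 in serum-deprived replicates 1 to 4, against 336, 290.2, 315 and 318 in control replicates 1 to 4. Both groups were tight and lay 86.2 scaled counts apart at their closest values. The means were 185 ± 16.4 in serum-deprived cells and 315 ± 18.99 in control cells, and the log2 fold change was -0.77 with an SE of 0.13 (edgeR, adjusted p = 0.00101).

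The spread of INHA was close to what counting alone gives. Its variance was 1.46 times the mean in serum-deprived cells and 1.15 times in control cells. The coefficient of variation was 8.87% in serum-deprived cells, rank 154 of 187 from the widest, and 6.03% in control cells, rank 181. The pair log2 ratios were -0.72, -0.60, -0.81 and -0.94 in pairs 1 to 4, the narrowest span of the 4 genes (mean -0.77 ± 0.14, SD, n = 4 pairs). All 8 counts of INHA were whole numbers.

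DLK1 (ENSG00000185559, chromosome 14, 100725705 to 100738224) was the 1 tabulated gene of the 31 on the list of adrenal progenitor, zonation and developmental regulators. Its scaled counts were 54418, 48734, 49697 and 46129 in serum-deprived replicates 1 to 4, against 67294, 73080.2, 73934 and 77279.9 in control replicates 1 to 4. Replicate 1 was the highest serum-deprived library and the lowest control library, and replicate 4 was the lowest serum-deprived and the highest control library. The means were 49745 ± 3461 in serum-deprived cells and 72897 ± 4152 in control cells, and edgeR gave a log2 fold change of -0.55 with an SE of 0.08 (adjusted p = 0.000535).

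DLK1 had the smallest fall of the 4 genes and the most counts. The pair log2 ratios were -0.31, -0.58, -0.57 and -0.74 in pairs 1 to 4, a mean of -0.55 ± 0.18 (SD, n = 4 pairs). For DLK1 pairing widened the spread: the pair SD was 1.40 times that of unpaired libraries, the highest quotient of the 187 genes, while the quotient was 0.88 for MRAP and 0.91 for INHA. DLK1 made up 15.997% of all tabulated counts in serum-deprived cells (14.9 to 17.2% over libraries) and 25.1% in control cells (23.3 to 27.0%). That share needs no size factor, but other abundant genes of the table move it as well.

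**Figure D3:**
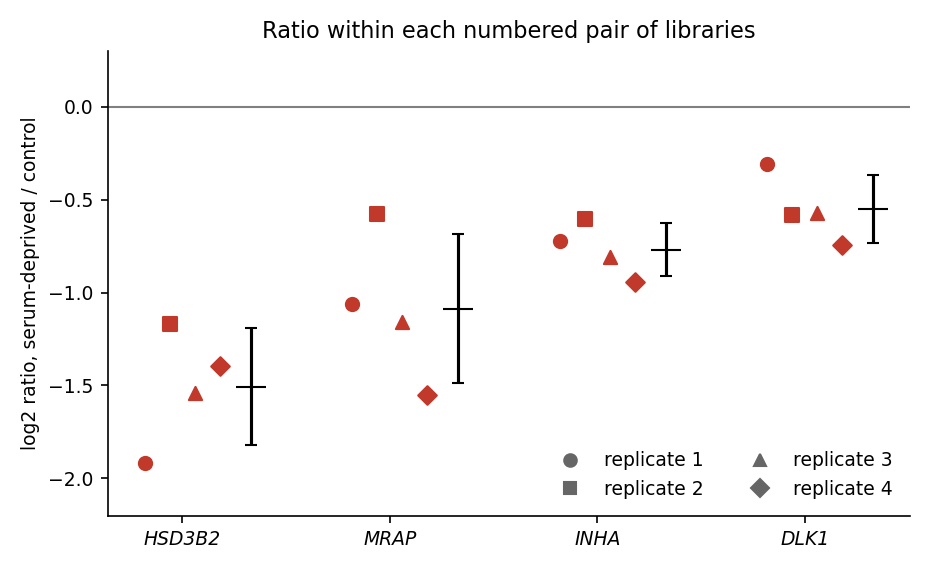
Log2 ratio of scaled counts, serum-deprived over control (vertical), within each of the 4 numbered pairs of libraries (marker shapes) for HSD3B2, MRAP, INHA and DLK1; bars give the mean and SD over pairs. All 16 ratios lie below 0, from -1.92 for HSD3B2 in pair 1 to -0.31 for DLK1 in pair 1.

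Each of the 4 genes was lower in all 4 pairs, as were 44.4% of tabulated genes. The pairs did not order the genes alike. In pair 1, HSD3B2 had its largest fall and DLK1 its smallest. Pair 2 gave the smallest fall of HSD3B2, of MRAP and of INHA, and pair 4 the largest of MRAP, INHA and DLK1. Without replicate 1 of both groups, the log2 fold changes were -1.26 ± 0.35 for HSD3B2, -1.04 ± 0.25 for MRAP, -0.73 ± 0.12 for INHA and -0.58 ± 0.05 for DLK1 (SE), with edgeR adjusted p-values of 0.00475, 0.00206, 0.000223 and 5.45e-06. Without that replicate 100% of tabulated genes passed in either direction and 50.3% passed as lower. These are apparently the libraries on which the authors selected the genes, so passing there was largely set in advance.

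The authors' deposited table orders the 4 genes oppositely by size and by FDR. There HSD3B2 has a log2 fold change of -1.26, and its FDR of 0.0993 is the largest of the table. The name of the deposited table gives limits on mean count, FDR and fold change for the selection. By the authors' FDR, HSD3B2 was thus the most marginal of the 187 genes, and it does not pass 0.05 there. In the authors' deposited table MRAP has -1.06 with an FDR of 0.0154, INHA has -0.74 with an FDR of 0.00013, and DLK1 has -0.59 with an FDR of 1.34e-20, the 8th smallest. These log2 fold changes departed by an SD of 0.0143 from those computed from replicates 2 to 4 alone, over the 187 genes, and by an SD of 0.188 from those of all libraries. The pair 1 ratios given above are therefore values on which the deposited fold changes do not appear to rest. The adjusted p-values given here from edgeR were computed over the 187 selected genes only, so they cannot be set against the authors' FDR.

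**Figure D4:**
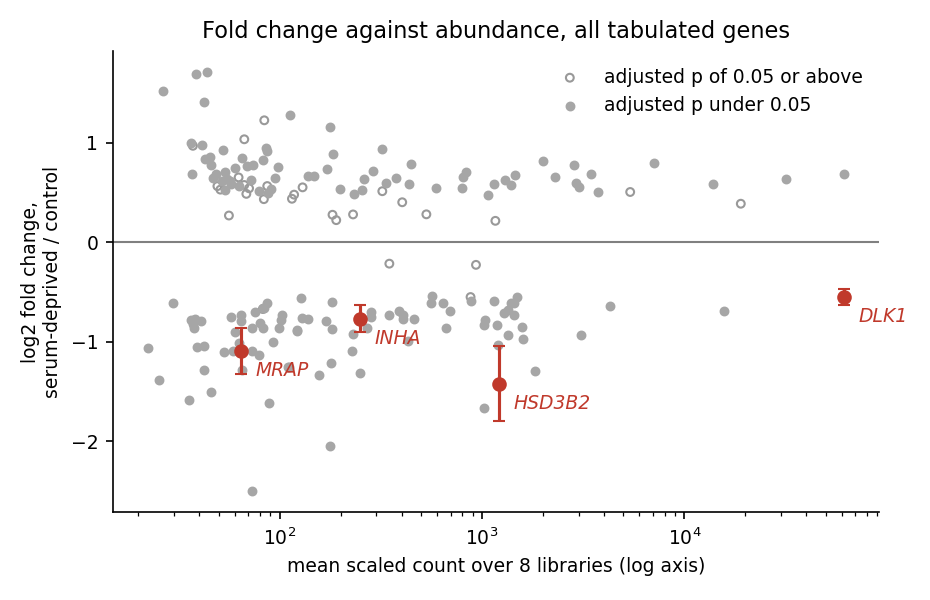
Log2 fold change, serum-deprived over control (vertical), against mean scaled count over 8 libraries (horizontal, log axis) for 187 tabulated genes; filled points passed the edgeR test at an adjusted p of 0.05, open points did not, and the 4 genes are in red with SE bars. HSD3B2 has the widest bar of the 4 (0.37) although only DLK1 is more abundant among them.

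Of the 187 genes, 94 were lower by the fitted fold change. Among these HSD3B2 ranked 7th by size of the fall, MRAP 21st, INHA 58th and DLK1 90th, so the fall of DLK1 was among the smallest. By mean scaled count over all libraries DLK1 ranked 2nd, HSD3B2 31st, INHA 75th and MRAP 141st. Levels were compared between genes per 1000 bases of the longest coding transcript (4722 bases for DLK1, 1783 for HSD3B2, 1468 for INHA and 1000 for MRAP). On that scale the mean levels in serum-deprived cells were 10535 for DLK1, 371 for HSD3B2, 126 for INHA and 41.1 for MRAP, and in control cells 15438, 992, 214 and 88.2 in the same order of genes. No neighbours in that order overlapped within a group: the lowest HSD3B2 level and the highest INHA level were 213 and 139 in serum-deprived cells and 726 and 229 in control cells. Which transcripts the cells used is not known from the table, and the order was the same per 1000 coding bases.

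Whether the 4 genes fell by different amounts was tested on ratios between their counts within a library, which need no size factor. Of 6 gene pairs compared, none passed an adjusted p of 0.05 (exact two-sided permutation tests, 4 libraries against 4, Benjamini-Hochberg over the 6). The smallest p these tests allow is 0.0286, which becomes 0.171 where 1 gene pair alone reaches it, so the design left little room to pass and the tests say little about whether the falls were alike. The tests did not use the numbered pairs. The nearest was INHA against DLK1. Its log2 ratio was between -8.12 and -8.00 in serum-deprived libraries and between -7.98 and -7.64 in control libraries, a difference of -0.22 (exact p = 0.0286, adjusted p = 0.171). The groups of this ratio did not overlap, and INHA fell more than DLK1 in all 4 numbered pairs, by 0.02 to 0.42 on the log2 scale.

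Larger differences came with a wider spread. The log2 ratio of HSD3B2 to DLK1 averaged -6.39 ± 0.78 in serum-deprived cells and -5.43 ± 0.50 in control cells, a difference of -0.95 (SD, n = 4 each; exact permutation p = 0.114, adjusted p = 0.229). For HSD3B2 against INHA the ratio averaged 1.69 ± 0.74 in serum-deprived cells and 2.42 ± 0.57 in control cells, a difference of -0.74 (exact permutation p = 0.171, adjusted p = 0.257). Within numbered pairs the SD of these differences was smaller, at 0.47 for HSD3B2 against DLK1 and 0.33 for HSD3B2 against INHA. Replicate 2 was the highest library of both groups in these ratios, so the smaller SD rests largely on that pair. HSD3B2 fell more than either gene in 4 of 4 pairs. Without replicate 1 of both groups the differences were -0.73 and -0.58, and that of INHA against DLK1 was -0.15. MRAP and DLK1 differed by -0.54, HSD3B2 and MRAP by -0.42 and MRAP and INHA by -0.32, with exact adjusted p-values of 0.229, 0.486 and 0.274 and 3 of 4 pairs in that direction for each.

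**Figure D5:**
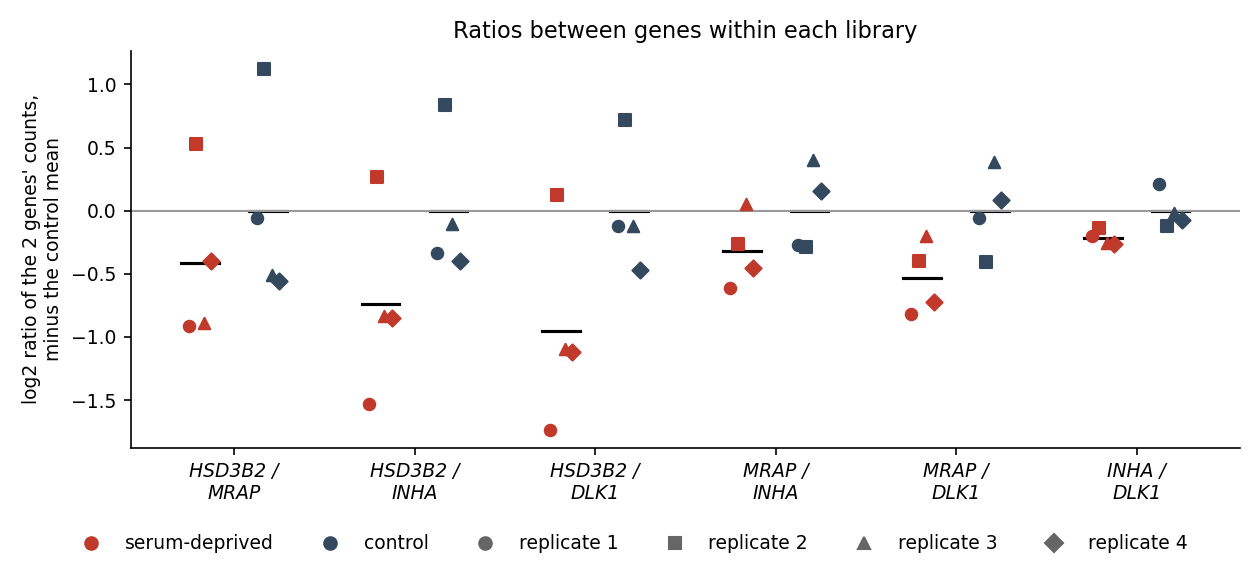
Log2 ratio of the counts of 2 genes within each library, minus the control mean (vertical), for the 6 gene pairs; serum-deprived libraries are red and left, control libraries dark and right, marker shapes give the replicate number and lines the group means. The groups are apart only for INHA over DLK1, and replicate 2 is the highest library of both groups in each ratio that contains HSD3B2.

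The tabulated genes with the most similar profile over the 8 libraries were found by the root mean square difference of log2 scaled counts, each centred on the gene's mean, among 182 other genes with a mean scaled count of at least 30. For DLK1 they were LY6E, C1QL4, CEBPB and FLYWCH2, at 0.09 to 0.12 log2 units, and for INHA they were C1QL4, FLYWCH2, LY6E and EDNRA, at 0.10 to 0.13. LY6E encodes a membrane-anchored protein, CEBPB a transcription factor and EDNRA an endothelin receptor. INHA and DLK1 were near each other, at 0.14, with DLK1 the 8th nearest gene to INHA and INHA the 9th nearest to DLK1. Genes that vary little between libraries come out near each other by this measure, and both of these varied little within groups.

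MRAP was nearest to THRB, FCN1, RASGRP3 and SLC51A, at 0.21 to 0.26 log2 units. THRB encodes a thyroid hormone receptor and SLC51A a subunit of a transporter of bile acids and steroid conjugates. THRB had 288 scaled counts in serum-deprived cells and 571 in control cells, and its log2 fold change was -0.99 with an SE of 0.12 (edgeR, adjusted p = 0.000371). HSD3B2 had no close neighbour: CD22, ASS1, COL13A1 and SCNN1G were nearest, at 0.35 to 0.45, and MRAP, INHA and DLK1 were 39th, 45th and 57th. ASS1, which encodes argininosuccinate synthase, and SCNN1G, a subunit of the epithelial sodium channel, had log2 fold changes of -1.67 ± 0.18 and -1.28 ± 0.25 (SE; edgeR adjusted p of 0.000102 and 0.00176).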

How the data were processed

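Stranded polyA libraries were made from 200 ng of total RNA with 15 PCR cycles and read from one end over 76 bases, per the labels' protocols. The table the authors deposited holds estimated counts for 187 selected genes, not scaled to depth; cutadapt, FastQC, kallisto, edgeR and GRCh38 are named in the submitters' processing notes, without versions or transcript release. The log2 fold change and FDR (an adjusted p-value) that the authors deposited are quoted as theirs. No column belonged to other samples (0). Depth per library is unknown.

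Size factors (0.846 to 1.21) were medians of ratios within each group (pseudocount 0.5). Between groups, the log2 ratios were shifted so that their widest gap with at least 20 genes on each side, -0.43 to 0.00123, lay around 0, since the table holds no unchanged genes. Counts were rounded and tested in edgeR 4.0.16 (R 4.3.3, glmQLFit and glmQLFTest, no covariate). The SE given with each edgeR fold change is not an edgeR output. It was derived as the absolute log2 fold change divided by the square root of the test's F statistic. The step was also run on simulated counts with the same dispersion for all genes, unlike these data, and no result here rests on that run. Ratios were tested with scipy 1.17.1 (Python 3.11.15). Same-numbered libraries deviated together across genes (correlations of 0.216, 0.377, 0.111 and 0.122 for replicates 1 to 4), so the numbers were taken to pair the libraries. Libraries of different numbers had correlations of -0.277 to 0.082, so the margin was small for replicates 3 and 4. Libraries of a group were not duplicates, as the chi-square per degree of freedom was at least 4.28. Genes named beside the 4 were tabulated genes of the pathway lists and, for each of the 4, the 4 nearest profiles. The genes and lists were chosen with earlier results of these data known. Each pathway list includes its own member of the 4 genes, so finding that gene on it was set in advance. Alternatives were a replicate block, omitted libraries, other scalings, a minimum mean of 100, limma-voom (limma 3.58.1) and DESeq2 1.42.0. Transcripts and locations are from GENCODE 29 and promoter sequences from RefSeq. Coding sequences of HSD3B2 are not reported here.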

Additional observations from a re-analysis of the deposited data

How the results depend on the processing

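The 4 genes stayed lower and passed the test under every alternative that was run. There were 18 for HSD3B2, INHA and DLK1 and 17 for MRAP, which the minimum mean of 100 removed. Every fit held most or all of replicates 2 to 4, on which the authors apparently selected the genes. Staying lower and passing was therefore largely set in advance. Log2 fold changes ranged from -1.91 to -1.11 for HSD3B2 (without serum-deprived replicate 2 and without control replicate 2), from -1.26 to -0.94 for MRAP, from -0.96 to -0.62 for INHA and from -0.75 to -0.40 for DLK1, and the largest adjusted p-values were 0.0196, 0.00942, 0.00502 and 0.00532. Scaling moved the median ratio of all genes by 0.20 with median-of-ratios size factors, by -0.22 without scaling, by -0.11 with column totals and by 0.09 with TMM scaling. The 4 genes moved in the same direction under each of these except TMM, under which HSD3B2 was at -1.45 and the others moved little. The mean pair ratio of INHA was -0.97 without scaling and -0.62 with median-of-ratios size factors, and that of DLK1 was -0.75 without scaling. With a replicate block the log2 fold changes were -1.50 ± 0.13 for HSD3B2, -1.08 ± 0.20 for MRAP, -0.77 ± 0.11 for INHA and -0.55 ± 0.10 for DLK1 (SE), and no call of the 4 genes changed. The block without replicate 1, chosen after seeing the data, changed none either. Replicate 2 was the highest HSD3B2 library of both groups, and no block without it was run. The small SE of HSD3B2 under the block may therefore rest on that replicate. Of 187 genes 159 passed, 69 higher and 90 lower. These numbers were 21 and 91 without scaling, 53 and 90 with column totals, and 80 and 74 with median-of-ratios size factors. Without replicate 1 of both groups all 187 passed, 93 higher and 94 lower, on the libraries apparently used for the authors' selection. With a minimum mean of 100, 91 passed, since 106 genes were tested. With a library left out, the difference of HSD3B2 ranged from -1.31 to -0.69 against DLK1, from -1.07 to -0.46 against INHA and from -0.73 to -0.04 against MRAP, each lowest without serum-deprived replicate 2, that of MRAP from -0.44 to -0.18 against INHA and from -0.67 to -0.41 against DLK1, and that of INHA against DLK1 from -0.26 to -0.15; none could pass, since 3 libraries against 4 allow no p below 0.0571. The number of libraries, the few counts of MRAP and the scale, which no unchanged gene fixes, limit the precision.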

Other observations

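With group means removed, which keeps the replicate pattern and drops the difference between groups, the gene nearest to HSD3B2 was SOX6, a transcription factor gene, at a root mean square difference of 0.26 log2 units over 8 libraries. This comparison was added after the values had been seen. SOX6 had scaled counts of 25.9, 116, 62.9 and 63.6 in serum-deprived replicates 1 to 4, against 15.6, 35.4, 15.0 and 14.5 in control replicates 1 to 4. Replicate 2 was the highest library of both groups, as for HSD3B2, but SOX6 was higher in serum-deprived cells (log2 fold change 1.71 ± 0.45, SE; edgeR adjusted p = 0.00605). CD22, COL13A1 and ETV4 followed, at 0.33 to 0.36, and MRAP was 112th of 182 genes.

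By the same measure DLK1 and INHA were each the 5th nearest gene to the other, at 0.10 log2 units. Both varied little within groups, and genes of small spread come out near by this measure whatever their replicate pattern. In control cells replicate 1 was the lowest library of DLK1 (67294 scaled counts) and the highest of INHA (336). In serum-deprived cells replicate 1 was the highest library of both and replicate 4 the lowest. MVD, which encodes an enzyme of the mevalonate pathway, was the nearest to DLK1, at 0.07, although it rose in serum-deprived cells, with 2568 scaled counts there and 1455 in control cells (log2 fold change 0.82 ± 0.12, SE; edgeR adjusted p = 0.000518).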
